A study of Rattus norvegicus with 19 samples.

Results

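Described here are 10 genes that carry or control sodium reabsorption in the distal nephron: Slc12a3, Wnk1, Wnk4, Stk39, Scnn1a, Scnn1b, Scnn1g, Sgk1, Nr3c2 and Hsd11b2. They were found on the arrays by gene name, as 16 probes, and all 10 were among the 24217 genes that could be tested. The samples were RNA from the renal cortex of 19 male rats of strain Crl:CD (SD), each on an Agilent array of its own read in 1 colour. The 7 DKD+enarodustat rats had 65 mg/kg of streptozotocin by vein and then feed holding 0.01% (w/w) enarodustat, which stabilises hypoxia-inducible factor by blocking its prolyl hydroxylases. The 7 DKD rats had the same streptozotocin, which destroys beta cells of the pancreas, without enarodustat. The 5 Sham rats had vehicle. Injection came 7 days before the animals were grouped, and kidneys were taken 14 days after grouping. Of 19 rats injected with streptozotocin 14 were used, split so that glycaemia and weight were alike in the 2 diabetic groups. The model is therefore an early stage of insulin-deficient diabetes in selected animals. The age of the rats is not given in the labels.

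In the distal convoluted tubule sodium and chloride enter the cell through NCC, the thiazide-sensitive cotransporter encoded by Slc12a3. NCC is switched on when the WNK kinases phosphorylate SPAK, the product of Stk39, which in turn phosphorylates NCC. Further along, in the connecting tubule and collecting duct, sodium enters principal cells through the epithelial sodium channel ENaC, built of alpha, beta and gamma subunits. Aldosterone raises ENaC activity through the mineralocorticoid receptor and its target kinase SGK1, and the enzyme 11-beta-HSD2 inactivates glucocorticoids so that aldosterone can reach the receptor. Much of this control acts on phosphorylation, cleavage and membrane traffic, which a measurement of RNA does not show.

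Wnk4 had 3 probes, which lie on rat chromosome 10 in build rn4 at chr10:90305270-90305329 (probe 1), chr10:90304481-90304540 (probe 2) and chr10:90306764-90306823 (probe 3), all on the plus strand. Probes 2 and 1 lie 789 bases apart, and probes 1 and 3 lie 1494 bases apart. They are shown because probe 1 passed the test between groups and probe 2 did not. Both probes of Scnn1b, at chr1:180747314-180747373 and chr1:180747058-180747117 on the plus strand, are shown because they lie 256 bases apart and gave like differences. No rn4 annotation was used, so exon and intron are not given. The probes are printed 5′ to 3′ with no base in capitals.
Wnk4 probe 1: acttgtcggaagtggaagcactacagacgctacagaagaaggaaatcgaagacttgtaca
Wnk4 probe 2: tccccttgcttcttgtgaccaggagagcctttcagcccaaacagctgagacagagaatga
Scnn1b probe 1: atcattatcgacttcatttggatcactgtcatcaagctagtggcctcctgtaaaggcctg
Scnn1b probe 2: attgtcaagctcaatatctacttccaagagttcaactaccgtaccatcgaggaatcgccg

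Promoters were read from RefSeq on build GRCr8 as the 250 bases before each start site, and 7 of the 10 genes had an entry. Each window was searched on both strands for the core of the hypoxia response element, ACGTG, and for the half-site bound by corticosteroid receptors, AGAACA, neither of which contains the other. The response element core was in 16.6% of the 33469 windows in the table, and among the 7 genes in that of Wnk4 alone, starting 189 bases before the start. The receptor half-site was in 17.5% of all windows and in none of these genes' windows. The Wnk4 window is printed because it holds that match, with the capitals marking the core as read on the opposite strand. It lies at chr10:86702708-86702957 on the plus strand of GRCr8. A match of these letters is a description and not a binding site.
Wnk4: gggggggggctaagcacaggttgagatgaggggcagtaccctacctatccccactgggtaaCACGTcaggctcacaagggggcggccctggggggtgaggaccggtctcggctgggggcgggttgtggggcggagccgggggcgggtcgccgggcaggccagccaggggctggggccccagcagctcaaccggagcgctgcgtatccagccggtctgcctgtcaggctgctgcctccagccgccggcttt

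Each of the 3 slides carried arrays of every group, but the slide's rows did not. The 7 DKD+enarodustat arrays were all in row 2, with DKD replicates 2 and 4, and the other 5 DKD arrays shared row 1 with the 5 Sham arrays. The share of probes well above background was 54.4% to 62.9% in DKD+enarodustat, 54.7% to 67.3% in DKD and 61.0% to 66.8% in Sham. By row it was 61.0% to 67.3% in row 1 and 54.4% to 62.9% in row 2. DKD replicates 2 and 4, in row 2, were at 57.6% and 54.7%. Only DKD had arrays in both rows, so a row term in a fit rests on these 2 arrays against the other 5. Proximal tubule markers, the bulk of cortex, were above background for 7 of 7 genes. Fat cell markers were higher in DKD than in Sham for 3 of 4 genes tested, where 17.1% of all genes passed in either direction. Lep, 1 of the 3, was at 1.85 ± 0.47 but above background on only 7 arrays, so its size is limited by background. The mean level of the 4 markers was -3.87 to -1.41 in DKD+enarodustat, -4.38 to -0.40 in DKD and -5.52 to -5.03 in Sham. The part of these markers in the differences of the 10 genes was not tested.

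Levels are given as log2 of the processed intensity minus the array's 75th percentile, so 0 is that percentile and 1 unit is a doubling. Where a gene had several probes, the brightest on average stood for it. A difference passed the test at an adjusted p under 0.05 in limma, with Benjamini-Hochberg adjustment over all 24217 genes. Differences carry the standard error of that fit.

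In diabetic cortex 2 of the 10 genes differed from Sham. On the brightest of its 3 probes, the kinase gene Wnk4 was higher by 0.53 ± 0.13, or 1.45-fold. The mean of the Wnk4 probes gave 0.12 ± 0.12 and did not pass in limma (adjusted p = 0.586). Hsd11b2, the enzyme that guards the mineralocorticoid receptor, was lower by 1.53-fold (-0.61 ± 0.15). The other 8, among them NCC and all ENaC subunits, did not pass the test. Over all genes 17.1% passed in this comparison, so 2 of 10 is near the background share. None of the 10 passed in limma for DKD+enarodustat against DKD, nor did any have an unadjusted p under 0.05; of all genes 2.00% passed the adjusted threshold. For none of the 10 were those groups without overlap, as they were for 1.25% of all genes. For DKD+enarodustat against Sham the genes past the threshold were again Wnk4 and Hsd11b2, where 26.1% of all genes passed. The median difference of the 10 genes was 0.03 for DKD minus Sham, -0.08 for DKD+enarodustat minus DKD and -0.07 for DKD+enarodustat minus Sham, beside -0.02, -0.02 and -0.04 over all genes. The DKD comparison with Sham and the DKD+enarodustat comparison with Sham share the Sham arrays.

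**Figure D1:**
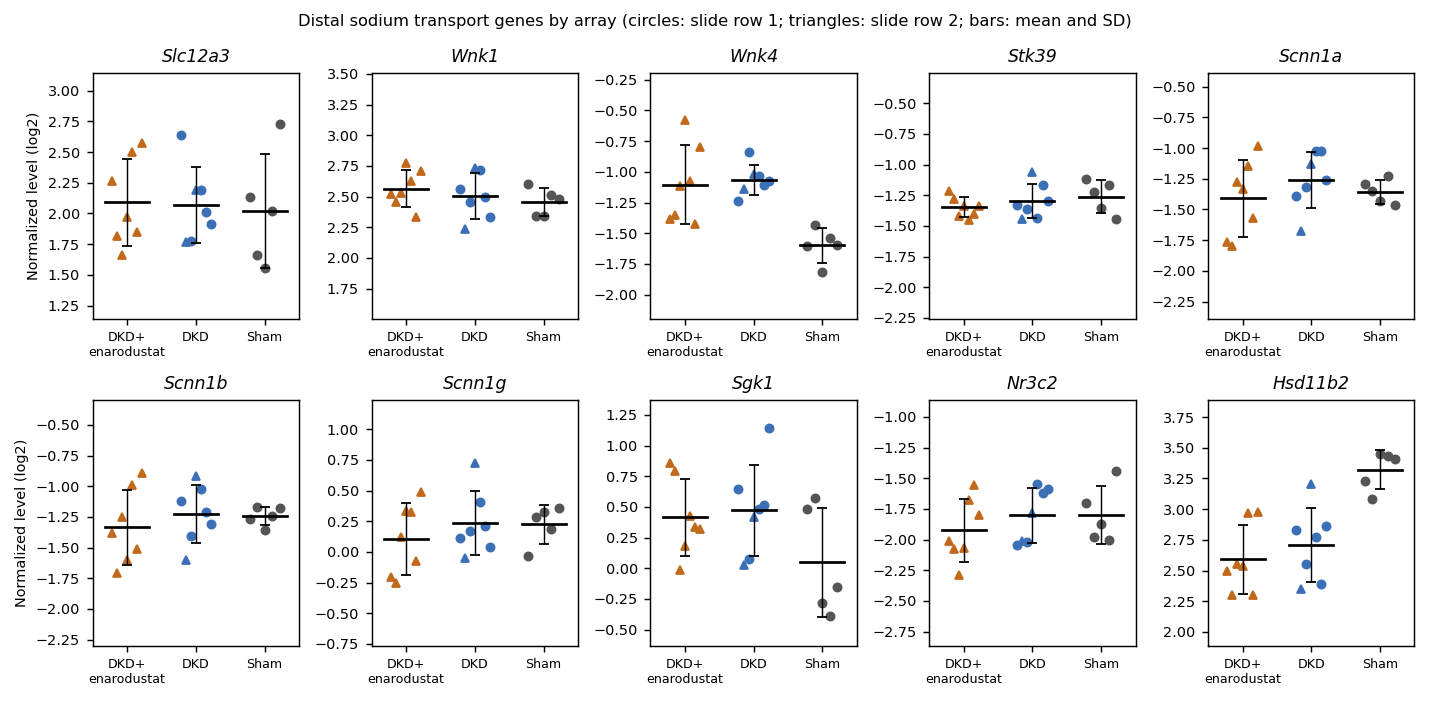
Normalized level (log2, relative to each array's 75th percentile) of the 10 genes on each array, by group, with the mean and SD as bars, circles for slide row 1 and triangles for row 2. Every panel spans the same 2 log2 units. On the probe that stood for each gene, Wnk4 lay higher and Hsd11b2 lower in both diabetic groups than in Sham. For Hsd11b2, 1 DKD array, at 3.20, was inside the Sham range.

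NCC itself, Slc12a3, was spread widely within every group. Its level was 1.66 to 2.57 with a median of 1.97 in DKD+enarodustat, and 1.76 to 2.64 with a median of 2.01 in DKD. In Sham it was 2.14, 1.66, 1.56, 2.02 and 2.73. Each diabetic group lay wholly inside the range of Sham. DKD minus Sham was 0.05 ± 0.21 (adjusted p = 0.934), with a 95% interval of -0.39 to 0.49. DKD+enarodustat minus DKD was 0.02 ± 0.19 (adjusted p = 0.992; -0.38 to 0.42), and DKD+enarodustat minus Sham 0.07 ± 0.21. A change of NCC RNA of up to about 1.40-fold in DKD is therefore inside the interval. The dimmer probe of Slc12a3 gave -0.20 ± 0.18 for DKD minus Sham and 0.14 ± 0.16 for DKD+enarodustat minus DKD, and did not pass either.

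Of the kinases upstream of NCC, Wnk4 stood apart. WNK4 is a kinase whose mutation in people can cause familial hyperkalaemic hypertension, with excess NCC activity. On the probe that stood for the gene, DKD+enarodustat arrays ran from -1.43 to -0.58 with a median of -1.11. DKD arrays ran from -1.24 to -0.84 with a median of -1.07. Sham arrays were at -1.61, -1.43, -1.82, -1.54 and -1.59. All 7 DKD arrays were above every Sham array, and 10.7% of all genes likewise had no overlap between these groups, in either direction. All 7 DKD+enarodustat arrays were above Sham too, though replicate 6 and the highest Sham array both round to -1.43. Of all genes, 14.4% had no overlap in that comparison.

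The difference of Wnk4 was 0.53 ± 0.13 for DKD minus Sham (adjusted p = 0.00762, 95% interval 0.26 to 0.81) and 0.49 ± 0.13 for DKD+enarodustat minus Sham (adjusted p = 0.00854). Between the diabetic groups it was -0.04 ± 0.12 (adjusted p = 0.959, -0.29 to 0.21). With slide as a block DKD minus Sham was 0.54, and within slides 1, 2 and 3 it was 0.33, 0.75 and 0.53. DKD+enarodustat minus Sham was less even, at 0.15, 0.83 and 0.50 within slides 1, 2 and 3. Without the DKD arrays of row 2 DKD minus Sham was 0.54 ± 0.15 (adjusted p = 0.0223). With the slide's row added to the fit, the DKD+enarodustat difference from Sham was 0.51 ± 0.23 and no longer passed (adjusted p = 0.256). That row term rests on DKD replicates 2 and 4, the DKD arrays with the highest fat cell markers. Renal cortex mixes many cell types, so more RNA per cell and more cells of a type cannot be told apart here.

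The call rested on that probe. Wnk4 probe 2 was at -3.95 to -3.28 in DKD+enarodustat, -3.72 to -3.32 in DKD and -4.16 to -3.19 in Sham, so the diabetic arrays lay inside the Sham range. Its DKD minus Sham difference was 0.12 ± 0.17 (adjusted p = 0.709 over single probes). Wnk4 probe 3 was dim, above background on 5 arrays of each group, with a difference of -0.28 ± 0.26. The mean of the probes gave 0.12 ± 0.12 (adjusted p = 0.586), which ended the call for DKD, and 0.13 ± 0.12 (adjusted p = 0.485) for DKD+enarodustat minus Sham. Over single probes 16.9% passed for DKD against Sham, 1.93% for DKD+enarodustat against DKD and 26.4% for DKD+enarodustat against Sham.

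**Figure D2:**
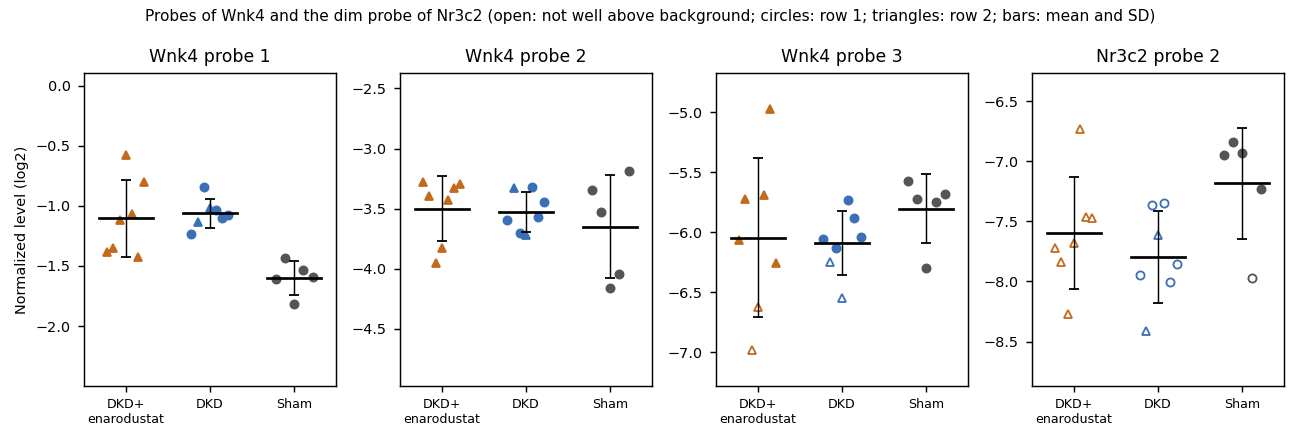
Normalized level (log2) on each array of the 3 Wnk4 probes and the dimmer Nr3c2 probe, by group, with mean and SD as bars and open symbols where the probe was not well above background. Probe 1 of Wnk4 separated both diabetic groups from Sham, while probes 2 and 3 overlapped in all groups. The Nr3c2 probe was well above background on 0 diabetic arrays and 4 Sham arrays, though DKD+enarodustat replicate 5 lay above every Sham array.

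Wnk1 and Stk39 did not pass in any comparison and had the tightest intervals of the 10 genes. WNK1 also activates SPAK, and the kidney makes a short form of it without the kinase domain; the probes were not assigned to a form. Wnk1 was at 2.33 to 2.78 in DKD+enarodustat, 2.23 to 2.73 in DKD and 2.34 to 2.61 in Sham. DKD minus Sham was 0.05 ± 0.09 (adjusted p = 0.814, -0.15 to 0.25) and DKD+enarodustat minus DKD 0.06 ± 0.09 (adjusted p = 0.879, -0.12 to 0.24). Stk39 was at -1.45 to -1.21 in DKD+enarodustat, -1.44 to -1.06 in DKD and -1.45 to -1.11 in Sham. Its differences were -0.04 ± 0.08 for DKD minus Sham (-0.20 to 0.12) and -0.05 ± 0.07 for DKD+enarodustat minus DKD (-0.20 to 0.10). These intervals hold folds of at most 1.19 for Wnk1 and 1.09 for Stk39 upward in DKD. A second Wnk1 probe, designed on a predicted transcript, gave 0.21 ± 0.22 for DKD minus Sham and 0.39 ± 0.22 for DKD+enarodustat minus Sham, and neither passed.

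None of the ENaC subunits passed in any comparison, and the 3 correlated with one another over the arrays. Scnn1a, the alpha subunit that is induced by aldosterone, was at -1.80 to -0.98 with a median of -1.34 in DKD+enarodustat and -1.67 to -1.02 with a median of -1.26 in DKD. In Sham it was at -1.29, -1.35, -1.43, -1.23 and -1.46. DKD and DKD+enarodustat arrays reached both above and below the Sham range. The difference was 0.09 ± 0.14 for DKD minus Sham (adjusted p = 0.746, -0.20 to 0.39) and -0.15 ± 0.13 for DKD+enarodustat minus DKD (adjusted p = 0.706, -0.42 to 0.12).

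Scnn1b, the beta subunit, was at -1.70 to -0.89 in DKD+enarodustat, -1.60 to -0.91 in DKD and -1.35 to -1.17 in Sham. Its SD was 0.31 in DKD+enarodustat and 0.24 in DKD (n = 7 each), against 0.08 in Sham (n = 5). DKD minus Sham was 0.01 ± 0.14 (-0.28 to 0.31) and DKD+enarodustat minus DKD -0.11 ± 0.13 (-0.37 to 0.16). The probe 256 bases away gave -0.03 ± 0.16 and -0.11 ± 0.15 for the same differences. Scnn1g, the gamma subunit, was at -0.25 to 0.48 in DKD+enarodustat, -0.05 to 0.73 in DKD and -0.03 to 0.36 in Sham, with differences of 0.01 ± 0.14 (-0.30 to 0.31) and -0.13 ± 0.13 (-0.40 to 0.15). The DKD+enarodustat minus DKD differences of the 3 subunits, -0.15 to -0.11, were close to their standard errors of 0.13.

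Over the 19 arrays, after the mean of each slide was removed, Scnn1b correlated with Scnn1g at r = 0.77, with Scnn1a at 0.75, and Scnn1a with Scnn1g at 0.63. The other pairs above 0.6 were Slc12a3 with Wnk1, at 0.68, and Scnn1b with Hsd11b2, at 0.60. Wnk4 and Hsd11b2, which moved in opposite directions between the groups, correlated at -0.56. These values describe arrays that share group, row and scaling.

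**Figure D3:**
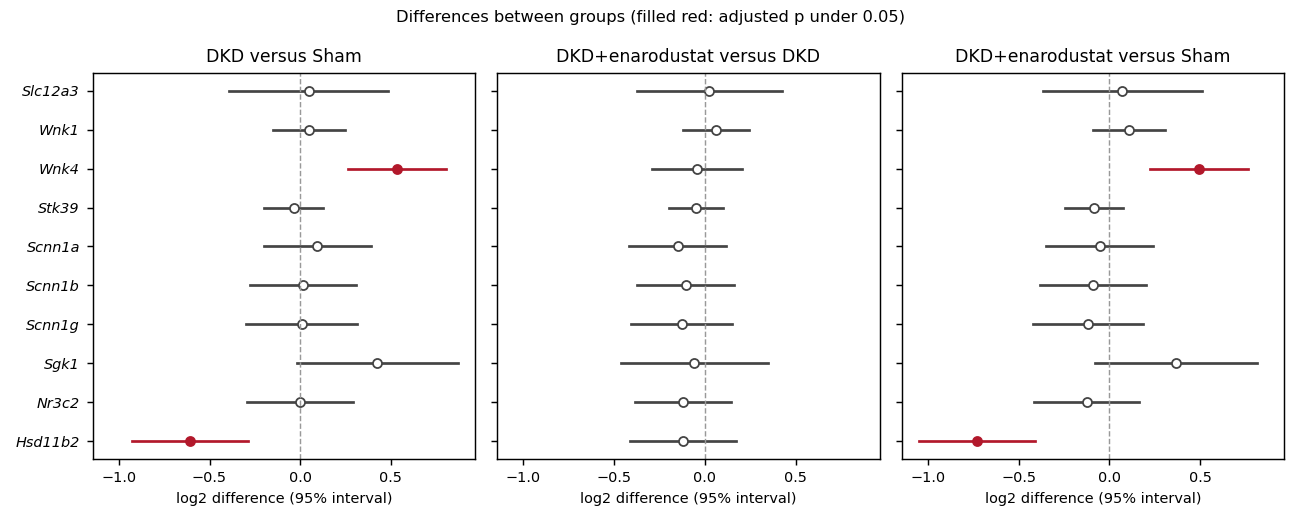
Log2 differences of the 10 genes with 95% intervals for DKD versus Sham, DKD+enarodustat versus DKD and DKD+enarodustat versus Sham. Filled red points passed the adjusted threshold. Wnk4 and Hsd11b2 passed in both comparisons with Sham, and all 10 intervals crossed 0 for DKD+enarodustat versus DKD.

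Sgk1, the kinase that keeps ENaC at the membrane, varied widely in every group. It was at -0.01 to 0.86 with a median of 0.34 in DKD+enarodustat and at 0.02 to 1.14 with a median of 0.48 in DKD. Sham arrays were at 0.48, 0.57, -0.28, -0.39 and -0.15. All 7 arrays of each diabetic group were above the Sham median, but 2 Sham arrays, replicates 1 and 2, lay among them. DKD minus Sham was 0.42 ± 0.21 (adjusted p = 0.196, -0.02 to 0.87), and DKD+enarodustat minus Sham 0.37 ± 0.21 (adjusted p = 0.227). Those 2 Sham arrays were the Sham arrays of slide 1. Within slide 1 DKD minus Sham was -0.19, against 0.58 in slide 2 and 0.87 in slide 3. With slide as a block it was 0.41 ± 0.17 (adjusted p = 0.102). DKD+enarodustat minus DKD was -0.06 ± 0.19 (adjusted p = 0.968, -0.46 to 0.35).

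Nr3c2, the mineralocorticoid receptor, was at -2.29 to -1.56 in DKD+enarodustat, -2.05 to -1.55 in DKD and -2.01 to -1.44 in Sham. Its differences were -0.00 ± 0.14 for DKD minus Sham (adjusted p = 0.996, -0.29 to 0.29), -0.12 ± 0.13 for DKD+enarodustat minus DKD (adjusted p = 0.781) and -0.12 ± 0.14 for DKD+enarodustat minus Sham (adjusted p = 0.580). Slide accounted for 80.5% of its variance within groups, the most of the 10 genes, with slide means of -1.97, -2.01 and -1.60. With slide as a block DKD+enarodustat minus Sham became -0.22 ± 0.07 and passed (adjusted p = 0.0267). In the authors' deposited value table the same difference was -0.15 ± 0.05 (adjusted p = 0.0275). With the row of the slide in the fit it was 0.01 ± 0.24 (adjusted p = 0.991), where the row term rests on DKD replicates 2 and 4.

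The other Nr3c2 probe was too dim to be tested: it exceeded background on 0 of 14 diabetic arrays and 4 of 5 Sham arrays. Its mean level was -7.60 in DKD+enarodustat, -7.79 in DKD and -7.18 in Sham. These means hold values not well above background, among them Sham replicate 4 at -7.98. DKD+enarodustat replicate 5, at -6.73, was brighter than every Sham array, the highest at -6.84, yet was not well above background. On DKD replicate 7 the probe was at -7.86 and not well above background, though the lowest signal that was lay at -9.66. That lowest signal is therefore no detection limit for this probe, and no fold between the groups was set.

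Hsd11b2 showed the larger difference of the 2 genes that passed. DKD+enarodustat arrays ran from 2.30 to 2.98 with a median of 2.54, and DKD arrays from 2.35 to 3.20 with a median of 2.78. Sham arrays were at 3.23, 3.08, 3.45, 3.43 and 3.41. All 7 DKD+enarodustat arrays were below every Sham array, and 6 of 7 DKD arrays were; DKD replicate 4, at 3.20, lay within the Sham range. DKD minus Sham was -0.61 ± 0.15 (adjusted p = 0.00936, -0.93 to -0.29). DKD+enarodustat minus Sham was -0.73 ± 0.15, or 1.66-fold lower (adjusted p = 0.00175, -1.05 to -0.41).

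Between the diabetic groups Hsd11b2 differed by -0.12 ± 0.14 (adjusted p = 0.826, -0.41 to 0.17). With slide as a block DKD minus Sham was -0.64, and within slides 1, 2 and 3 it was -0.57, -0.56 and -0.73. Without the DKD arrays of row 2 it was -0.64 ± 0.14 (adjusted p = 0.0077). With the slide's row in the fit the DKD+enarodustat difference from Sham was -0.82 ± 0.27 (adjusted p = 0.101), which did not pass. Here too the row term rests on DKD replicates 2 and 4. Hsd11b2 had 1 probe, so no second probe could be set beside it.

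Markers of the same segments were set beside these genes. Over all genes 17.1% passed for DKD against Sham, so marker counts of 1 of 6 or 1 of 7 are near the background share. Of 10 connecting tubule and principal cell markers 4 were higher in DKD than in Sham (Aqp2, Aqp3, Aqp4 and Fxyd4) and 1 was lower, which was Hsd11b2 itself. The mean level over the 10, which include Hsd11b2, Scnn1b and Scnn1g, was -0.05 to 0.44 in DKD+enarodustat, 0.00 to 0.39 in DKD and -0.14 to -0.07 in Sham. Of the 6 distal convoluted tubule markers tested, which include Slc12a3, 1 was higher in DKD, Calb1 (calbindin) at 0.84 ± 0.22. None was higher in DKD+enarodustat against Sham. Trpm6 and Emx1 were above background on 9 and 15 of 19 arrays. The mean level of the 6 was -2.86 to -2.15 in DKD+enarodustat, -2.67 to -1.97 in DKD and -2.95 to -2.30 in Sham. Some markers of other cell types also passed for DKD against Sham. Thick ascending limb markers were lower for 4 of 7 genes, with a mean level of 0.49 to 1.04 in DKD+enarodustat, 0.05 to 0.74 in DKD and 1.07 to 1.32 in Sham, so both diabetic groups lay below Sham. Proximal tubule markers were lower for 4 of 7 genes and higher for 1, with a mean level of 4.67 to 4.96 in DKD+enarodustat, 4.57 to 4.97 in DKD and 4.93 to 5.09 in Sham. Podocyte markers were lower for 2 of 5 genes, intercalated cell markers for 1 of 7, and leukocyte markers were higher for 2 of 6. In DKD+enarodustat against Sham 3 of 7 intercalated cell markers were lower and 0 higher, where 26.1% of all genes passed. Against DKD all 7 were lower in DKD+enarodustat, with a median of -0.19. There 0 passed in limma and 3 had an unadjusted p under 0.05. None of 6 endothelial and 3 erythroid markers passed in limma for DKD against Sham, with 1 and 0 at an unadjusted p under 0.05. The part of all these markers in the differences of Wnk4 and Hsd11b2 was not tested.

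Genes that control the kinases and the channel were taken from lists of each pathway. Of 8 regulators of the WNK and SPAK kinases tested, 0 rose and 1 fell in DKD: Klhl2, an adapter that brings WNK kinases to a ubiquitin ligase, by -0.30 ± 0.06 (adjusted p = 0.00231). Klhl2 (-0.37 ± 0.06) and the ligase scaffold Cul3 (-0.27 ± 0.06) fell in DKD+enarodustat against Sham. Ppp1r1a, inhibitor 1 of the phosphatase that acts on NCC, was at -0.40 ± 0.15 in DKD (adjusted p = 0.0771) and Oxsr1, the kinase closest to SPAK, at 0.14 ± 0.08 (adjusted p = 0.278). Klhl3, the other adapter, was not among the genes tested. The median of the list was -0.06 in DKD minus Sham, beside -0.02 over all genes. For DKD+enarodustat against DKD 0 of the 8 passed in limma and 2 had an unadjusted p under 0.05.

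Of 10 regulators and partners of ENaC, 1 rose and 4 fell in DKD, where 17.1% of all genes passed. Prss8, the protease prostasin that cleaves the gamma subunit, was lower by -0.38 ± 0.09 (adjusted p = 0.00606). The intercalated cell chloride exchanger pendrin, Slc26a4, was lower by -0.73 ± 0.18, and the sodium-driven exchanger Slc4a8 by -0.88 ± 0.27 with 11 of 19 arrays above background. Cnksr3, an aldosterone-induced scaffold of the ENaC complex, was lower by -0.31 ± 0.09, while the deubiquitinase Usp2 was higher by 0.44 ± 0.14 (adjusted p = 0.0375). Against Sham the same counts, 1 and 4, held in DKD+enarodustat, where 26.1% of all genes passed, with pendrin at -1.32 ± 0.18. The list's median was -0.17 in DKD minus Sham. For DKD+enarodustat against DKD 0 of the 10 passed and 2 had an unadjusted p under 0.05. Furin, another protease of the ENaC subunits, came nearest, at 0.38 ± 0.10 (adjusted p = 0.05001).

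Among 10 genes that corticosteroids induce, 4 rose in DKD and 2 fell, where 17.1% of all genes passed. Those that rose were the clock gene Per1 (0.87 ± 0.25), the endothelin precursor Edn1 (0.69 ± 0.20), Usp2 and Ndrg2 (0.35 ± 0.09). Those that fell were Cnksr3 and the transcription factor Klf9 (-0.35 ± 0.11). The list's median was 0.35 in DKD minus Sham, against -0.02 over all genes, while Sgk1, also such a target, did not pass. Tsc22d3, a widely used glucocorticoid target, was at 0.02 ± 0.19. In DKD+enarodustat against DKD 1 of the 10 rose, Ddit4, a stress gene also induced by hypoxia, at 0.71 ± 0.18 (adjusted p = 0.0493). Of all genes 2.00% passed there, and the list's median was 0.19. The glucocorticoid receptor Nr3c1 was lower by -0.20 ± 0.06 in DKD (adjusted p = 0.0292). Hsd11b1, which makes active glucocorticoid, and its partner H6pd did not pass.

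On the blood side of the cell 1 of 7 genes rose in DKD and 2 fell, where 17.1% of all genes passed. Fxyd2, the sodium pump's gamma subunit, was at -0.40 ± 0.07 and Bsnd, barttin of the chloride channels, at -0.46 ± 0.10, while Fxyd4, the pump's regulator in collecting duct, was at 0.52 ± 0.12. The list's median was -0.00. Atp1b1, the pump's beta subunit, was at 0.07 ± 0.04 and did not pass. Of 6 genes for sodium entry upstream, 1 fell, the phosphate cotransporter Slc34a1 (-0.26 ± 0.07), with a list median of -0.25. Slc5a2, the glucose cotransporter SGLT2, was at -0.38 ± 0.14 (adjusted p = 0.0672) in DKD and at -0.42 ± 0.14 in DKD+enarodustat against Sham, where it passed (adjusted p = 0.0295). No gene of either list passed for DKD+enarodustat against DKD, with 1 of 7 and 0 of 6 at an unadjusted p under 0.05.

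**Figure D4:**
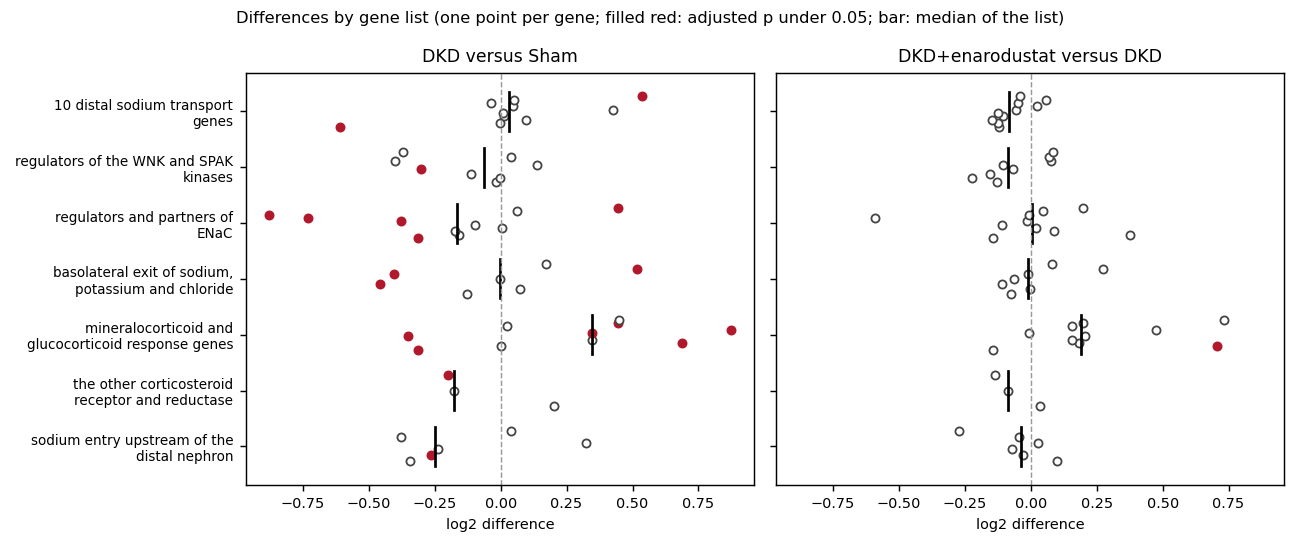
Log2 difference of every tested gene of the 10 distal sodium transport genes and of the 6 pathway lists, for DKD versus Sham and DKD+enarodustat versus DKD, with the list median as a bar and genes past the adjusted threshold in red. Every list held at least 1 gene past the threshold for DKD versus Sham, where 17.1% of all genes passed. Cnksr3 and Usp2 were in both the ENaC list and the corticosteroid list. For DKD+enarodustat versus DKD, 1 gene passed, Ddit4, where 2.00% of all genes passed.

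The genes most like each of the 10 were ranked by Pearson's r over the 19 arrays, after each slide's mean was removed, among 13903 genes. For Hsd11b2 they were Myo5c (r = 0.95), Enpp1 (r = 0.95) and Phkb (r = 0.93), each lower in DKD than in Sham, by -0.50, -0.37 and -0.50. For Wnk4 they were Slc25a27 (r = 0.86), Dcn (r = 0.86) and Ndrg2 (r = 0.85), of which Dcn (0.88) and Ndrg2 (0.35) were higher in DKD past the threshold. The group difference itself enters these correlations. Nr3c2 was most like Gcc2 (r = 0.90), which did not differ past the threshold, and Slc12a3 most like Rogdi (r = 0.78). The nearest gene to Scnn1b was Sema3e (r = 0.83) and to Scnn1g was Pde8a (r = 0.82). Scnn1a was nearest to Slc4a4 (r = 0.78), Sgk1 to Rpl35a (r = 0.81), Wnk1 to Slc8a1 (r = 0.77) and Stk39 to Gal (r = 0.76), none of which passed in DKD against Sham.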

How the data were processed

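RNA of the renal cortex of 19 rats was labelled with Cy3. Each deposited scanner file holds the intensity of every spot from Agilent Feature Extraction 11.5.1.1, already corrected for background and detrended by that software, per the file headers. A table of the authors' own log2 values was deposited too and served as an alternative. How it was normalized is not given in the sources used here, and it holds 14 of the 16 probes.

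Processed intensities were put on the log2 scale and reduced by the array's 75th percentile, without outlier spots, and spots of a probe were averaged. Probes above background on at least 5 of 19 arrays were kept (30259 of 45598). Names came from RefSeq accessions (GRCr8, names only) where possible, and the brightest probe stood for a gene. The file headers place the probes on rn4. A limma model (version 3.58.1, R 4.3.3, lmFit and eBayes) covered the 3 groups without a covariate, with two-sided p-values and an adjusted threshold of 0.05. The fit was tested on simulated data.

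Arrays of the same replicate number deviated together: the correlations were 0.13 to 0.59 for DKD and Sham, 0.14 to 0.42 for DKD+enarodustat and DKD, and 0.14 to 0.47 for DKD+enarodustat and Sham. The numbers follow the slides, and the labels give no pairing of rats. Arrays of unlike number on the same slide were not compared, so a pairing cannot be told apart from the slide. The number of arrays limits the precision.

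The genes, lists and tests were chosen with earlier results of these data known. Up to 4 genes of a list were named by smallest adjusted p; Usp2, Furin, Klf9, Ddit4, Tsc22d3, Klhl3 and the marker genes were named after their values were seen. Alternatives covered background correction, scaling, the filter, probe choice, slide, slide row, replicate number, array weights and leaving out each array.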

Additional observations from a re-analysis of the deposited data

Results flagged for a closer look

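Of 48 groups of arrays checked, 1 held an array whose gap to the nearest exceeded Dixon's critical value, where chance gives about 1 in 20. On the dim probe 3 of Wnk4, Sham replicate 3 was at -6.30, against -5.75 for the nearest Sham array. That gap was 0.759 of the group's range. On the probe that stood for Wnk4 the same array was the lowest Sham array, at -1.82.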

How the results depend on the processing

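Leaving out each array in turn gave counts of genes past the threshold of 2 to 2 for DKD against Sham, 0 to 0 for DKD+enarodustat against DKD and 2 to 2 for DKD+enarodustat against Sham. Wnk4 was then 0.48 to 0.58 and Hsd11b2 -0.69 to -0.55 in DKD minus Sham. With the replicate block the counts were 2, 0 and 2, so blocking on replicate number changed no call. For DKD against Sham the count fell to 1 with the mean of a gene's probes and to 0 within slide 1, slide 2 or slide 3, where 2 or fewer Sham arrays remain (the lone Sham array of slide 3 is assumed to vary like the other groups). For DKD+enarodustat against DKD it was 0 under all 34 alternatives; 0 of the 10 genes had an unadjusted p under 0.05. For DKD+enarodustat against Sham it was 3 with the authors' value table and with slide as a block (Nr3c2 added), 1 with the mean of probes, and 0 within each slide, with slide row as a covariate and with slide and slide row together. That last setting, and row 2 alone, were chosen after seeing the data. With both terms Wnk4 was 0.52 (adjusted p = 0.237) and Hsd11b2 -0.94 (adjusted p = 0.0565); the cause was not tested. No called value changed sign, and 102 of 960 values did so without passing on either side. Row and treatment overlap closely, and dim probes are limited by background.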
